A study of Caenorhabditis elegans with 2 samples.

Results

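Mitochondrial ribosomal protein genes were described in a ChIP-seq map of the C. elegans Hox protein MAB-5. The members were all nuclear protein-coding genes whose symbol starts with mrpl- (large subunit) or mrps- (small subunit), 71 of 19973 genes on the WBcel235 assembly, with 42 mrpl and 29 mrps genes. Chromatin immunoprecipitation followed by sequencing had been made on whole mixed-sex, mixed-stage embryos of strain OP27, which carries unc-119(ed3) on chromosome III and the integrated transgene wgIs27, and whose MAB-5 is tagged with eGFP. Both biological replicates belong to this 1 genotype and 1 stage class, so the design holds no comparison between groups, and the values below describe where peaks lay. The embryos were not sorted by age or cell type, and a signal from whole embryos cannot separate how many cells carried the protein at a site from how much each carried. The labels give mab-5 as the antibody, while the sample description names the eGFP fusion as the target.

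Mitochondria make a few of their proteins, all of them parts of the respiratory chain or the ATP synthase, on their own ribosomes. The RNAs of those ribosomes come from mitochondrial DNA, whereas every ribosomal protein is encoded in the nucleus, made in the cytosol and imported. In C. elegans, lowered expression of mitochondrial ribosomal protein genes such as mrps-5 is known to trigger the mitochondrial unfolded protein response and to lengthen life. MAB-5 itself is an Antennapedia-type Hox factor known for patterning the posterior body and for steering the migration of neuroblasts. Many nematode genes sit in operons, runs of same-strand genes that share 1 promoter, and genes for mitochondrial proteins are known to be common in them.

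The authors deposited relaxed lists of 30000 peaks for each replicate and for both pooled, which include background, and a thresholded list of 502 peaks. Each peak carries a signal value, an enrichment measure of the authors whose scale the sources do not state. Signal values ran from 7.92 to 408 in the pooled list, from 3.28 to 146 in replicate 1 and from 5.6 to 270.2 in replicate 2, so that they are read here only within a list. Ranks count from 1 for the strongest peak of a list. The window of a gene reached 2000 bp upstream and 500 bp downstream of its start, and each gene was given the strongest summit in its window. The number of reads is unknown, so intervals are exact 95% binomial intervals over genes and cover counting error only.

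Most mitochondrial ribosomal protein genes had a weak or moderate summit by their start, and few had a strong one. In the pooled list 53 of 71 had a summit in the window (74.6%, exact 95% interval 62.9 to 84.2%), against 54.3% of all genes. In replicate 1 the count was 53 (74.6%, against 58% of all genes) and in replicate 2 it was 55 (77.5%, interval 66 to 86.5%, against 55.7%). The share over the replicates was 76.1% ± 1.99 (SD, n = 2), and that of all genes 56.8% ± 1.6. Both replicates had a summit at 46 members (64.8%, against 37.9% of all genes). Among the 5000 strongest nuclear peaks of the pooled list, 26 members had one (36.6%, interval 25.5 to 48.9%, against 16.7% of all genes). The thresholded list reached 5 members (7.04%, interval 2.33 to 15.7%, against 2.48% of all genes).

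The thresholded count was small and came from the replicates together. Among the 502 strongest peaks of replicate 1 alone, 3 members had a summit (4.23%, against 2.25% of all genes), and in replicate 2 alone 2 members had one (2.82%, against 2.27%). No member was in the strongest 502 peaks of both, which says little with only 3 and 2 members in the single lists. The share of all genes in both was not counted. The share with a summit also fell closer to that of all genes when a summit counted only for the gene whose start is nearest, at 52.1% against 42.8% in the pooled list and 46.5% against 45.1% in replicate 1.

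**Figure D1:**
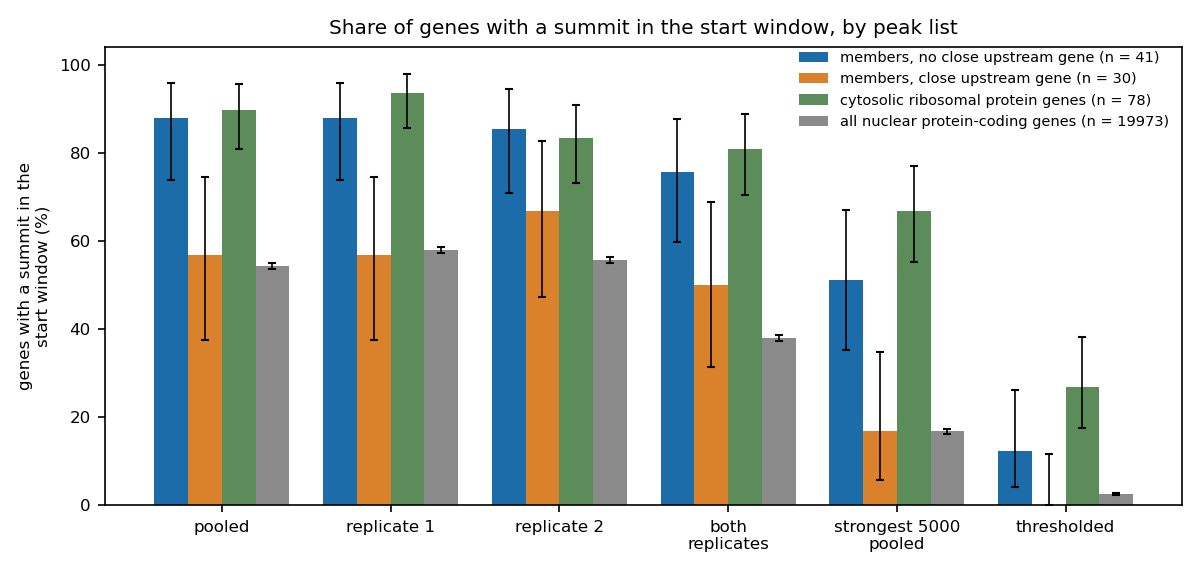
Percentage of genes with a peak summit in the start window (y axis) in each peak list (x axis), for members with and without a same-strand gene within 500 bp upstream, cytosolic ribosomal protein genes and all genes; bars are shares and lines exact 95% intervals. In the pooled list, members without a close upstream gene stand at 87.8%, members with one at 56.7% and all genes at 54.3%.

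The summits of the members were somewhat stronger than those of other genes and stayed below the strongest in the genome. The 53 pooled values ran from 8.16 to 39.2 with a median of 15.7, while the 10854 genes with a pooled summit had a median of 12.9 and a highest value of 236. Of the 53, 34 (64.2%) exceeded the median of all genes. In replicate 1 the medians were 6.92 for members and 5.68 for all genes, and in replicate 2 they were 13.2 and 9.54. Large and small subunit genes had pooled summits in 31 of 42 and 22 of 29 cases, with median signal values of 17.2 and 15.2.

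The strongest member was mrpl-47, the gene of a large subunit protein. Its thresholded peak (I, 5244129 to 5244468, ce11) had its summit 16 bp downstream of the start and a pooled signal value of 39.2, rank 327 of 30000. The signal value was 13.6 in replicate 1 (rank 602) and 29.4 in replicate 2 (rank 281), with summits 45 and 16 bp downstream of the start. Both replicates thus placed a high-ranking peak at the start itself. The window of let-363, the C. elegans TOR kinase gene, held the same pooled summit, to which the start of mrpl-47 was nearer.

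The other 4 members in the thresholded list shared their upstream region with a gene on the opposite strand. These regions therefore cannot assign the peak to 1 of the genes. At mrpl-49, the gene of another large subunit protein, the peak (V, 12728281 to 12728620) had a pooled signal value of 38.8, rank 334. Its value was 8.98 in replicate 1 (rank 2635) and 21.6 in replicate 2 (rank 723). The summit lay 180 bp upstream of mrpl-49 and 339 bp upstream of rpl-28, a gene of the cytosolic ribosome whose start is 519 bp away, so that genes of both ribosomes flank 1 peak. At mrpl-18, whose product belongs to a family that binds 5S rRNA in bacteria, the peak (III, 8144632 to 8144971) had a pooled signal value of 36.3, rank 413, and a summit 213 bp upstream. Its ranks were 3943 in replicate 1 (signal value 8) and 278 in replicate 2 (29.4), and the start of the divergent gene phka-1 was nearer to the pooled summit.

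Of the small subunit genes, mrps-34 and mrps-7 were in the thresholded list. The mrps-34 peak (III, 4542286 to 4542625) had a pooled signal value of 36, rank 426, with its summit 4 bp upstream of the start. The divergent gene cisd-3.1 starts 429 bp from mrps-34. Its ranks in the replicates were close to each other, 1140 (signal value 11.3) and 1051 (19.2). The mrps-7 peak (IV, 14767732 to 14768071), at the gene of the relative of bacterial S7, a protein that starts the assembly of the small subunit head, lay 172 bp upstream. It had a pooled signal value of 34.9, rank 480. The replicates differed most here, with rank 159 in replicate 1 (signal value 20.5) and 10531 in replicate 2 (9.59).

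The sequences at these summits, except that of mrpl-47, are shown to let their base composition be compared. Added to them is mrpl-36, the strongest of the remaining members outside the thresholded list with a match to CTGCGTCT, chosen after its values were seen. Each sequence holds up to 101 bases, on the strand of the gene, and ends before the gene start. All are centred on the pooled summit except that of mrps-34, which was cut at the gene start to 54 bases. They were read from the RefSeq WBcel235 genome (V:12728401-12728501, III:8144752-8144852, IV:14767852-14767952, III:9848251-9848351 and III:4542453-4542506), and none overlapped an annotated exon. Capitals mark GCGC, and CTGCGTCT or its reverse complement.
mrpl-49: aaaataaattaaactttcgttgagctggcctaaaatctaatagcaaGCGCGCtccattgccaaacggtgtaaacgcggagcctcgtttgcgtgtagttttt
mrpl-18: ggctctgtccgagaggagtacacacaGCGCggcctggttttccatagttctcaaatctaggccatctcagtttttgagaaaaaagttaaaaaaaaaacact
mrps-7: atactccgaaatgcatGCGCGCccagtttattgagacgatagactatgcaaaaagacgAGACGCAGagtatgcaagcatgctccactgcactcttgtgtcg
mrpl-36: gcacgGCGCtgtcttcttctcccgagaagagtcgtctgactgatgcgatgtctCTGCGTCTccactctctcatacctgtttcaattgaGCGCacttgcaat
mrps-34: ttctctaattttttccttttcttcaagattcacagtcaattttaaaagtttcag

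All but the shortened mrps-34 stretch hold GCGC, a tetramer picked after these sequences were read. Among other members of high pooled value, whose stretches are not shown, mrps-28, mrps-25 and mrps-21 lacked it and mrpl-55, mrpl-39 and mrpl-28 held it. Within 100 bp of the summit GCGC occurred at 27 of the 52 distinct strongest pooled summits of members (51.9%, exact 95% interval 37.6 to 66%). It occurred at 22.2% of the 12765 pooled summits in any start window and at 62.3% of the 305 thresholded ones. mrps-34 is counted among the members by a match 95 bp from its summit. The member counts here include the sequences GCGC was picked from, so they are not independent of that choice. Among the 5000 strongest peaks it occurred at 19 of 26 member summits (73.1%) and at 38% of 2569 summits in start windows. The median GC content of these 201-base windows was 34.6% at member summits and 32.8% at all summits in start windows, and its part in the result was not tested. In promoters of 300 bases, from 250 before to 50 after the start, GCGC was found in 46.5% of members and 28.7% of all genes.

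The composite site of Hox proteins with their PBC cofactors, TGATNNAT, was no more frequent at member summits than at others. Both strands were searched, and 8 of 52 member summits held it (15.4%, interval 6.88 to 28.1%), against 15.6% of all pooled summits in start windows and 22% of the 305 thresholded ones. In the promoters it was found in 21.1% of members and 23.6% of all genes. The homeodomain site TAATTA was at 5 member summits (9.62%, against 11.8%). In the promoters it was found in 21.1% of members (interval 12.3 to 32.4%) and 15.5% of all genes. Without a close upstream gene the shares were 26.8% (interval 14.2 to 42.9%) and 14.8%. Both intervals held the share of all genes. The E-box CACGTG was at 2 member summits (3.85%, against 2.81%). CTGCGTCT was at 3, those of mrps-7, mrpl-36 and mrpl-20 (5.77%, against 3.13%). Among the 5000 strongest peaks its share was 7.69% at member summits and 7.79% at all summits in start windows, and it was at 13.8% of the thresholded ones. It stood 11 and 6 bp from the summits of mrps-7 and mrpl-36 and 63 bp from that of mrpl-20. TGATNNAT and TAATTA matches overlapped at 1 member summit, that of mrpl-36, and no other pair of these 5 motifs overlapped at a member summit.

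Below the threshold came a further series of members at moderate signal. mrps-28, a small subunit gene, was the first outside the thresholded list, whose lowest signal value was 34.3. It had a pooled value of 33.1 (rank 550), ranks of 275 and 792 in the replicates, and a summit 127 bp upstream, nearer to the divergent gene Y43F8C.7. The strongest replicate 1 summit of its window was another one, 998 bp upstream. mrpl-15 had a pooled value of 31.6 with a summit 616 bp upstream, and ranks of 2438 and 559. In replicate 1 its strongest summit lay on the other side of the start, 314 bp downstream.

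mrpl-55, the gene of a protein found in animals but not in bacterial ribosomes, had a pooled value of 28.6 and summits in close positions, 241 bp upstream in the pooled list and 245 and 188 bp upstream in the replicates (ranks 2062 and 617). mrpl-36 had a pooled value of 27 with a summit 185 bp upstream, and ranks of 5649 and 1372, the first of them for another summit 1678 bp upstream. mrps-25, at 26.8, ranked 506 in replicate 2 and 10141 in replicate 1, the latter for another summit 1983 bp upstream. Its pooled summit, 356 bp upstream, lay nearer to the divergent gene Y55F3AM.13. mrpl-39 (23.8), mrpl-28 (22.8) and mrps-6 (21.9) had summits 121 to 177 bp upstream that were nearest to their own start. mrpl-28 ranked 326 in replicate 1 and 1053 in replicate 2, while mrps-6 ranked 17316 and 1201. Among the 15 members with the highest pooled values, mrpl-23 and mrps-21 closely followed a same-strand gene, and their summits lay farther away. mrpl-23 follows the tRNA synthetase gene fars-1 after 95 bp and had a value of 29.6, with a summit 959 bp upstream and ranks of 636 and 1570. mrps-21 had a value of 21.7 with a summit 1109 bp upstream, nearer to jmjd-1.2, and ranks of 2405 and 1938.

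**Figure D2:**
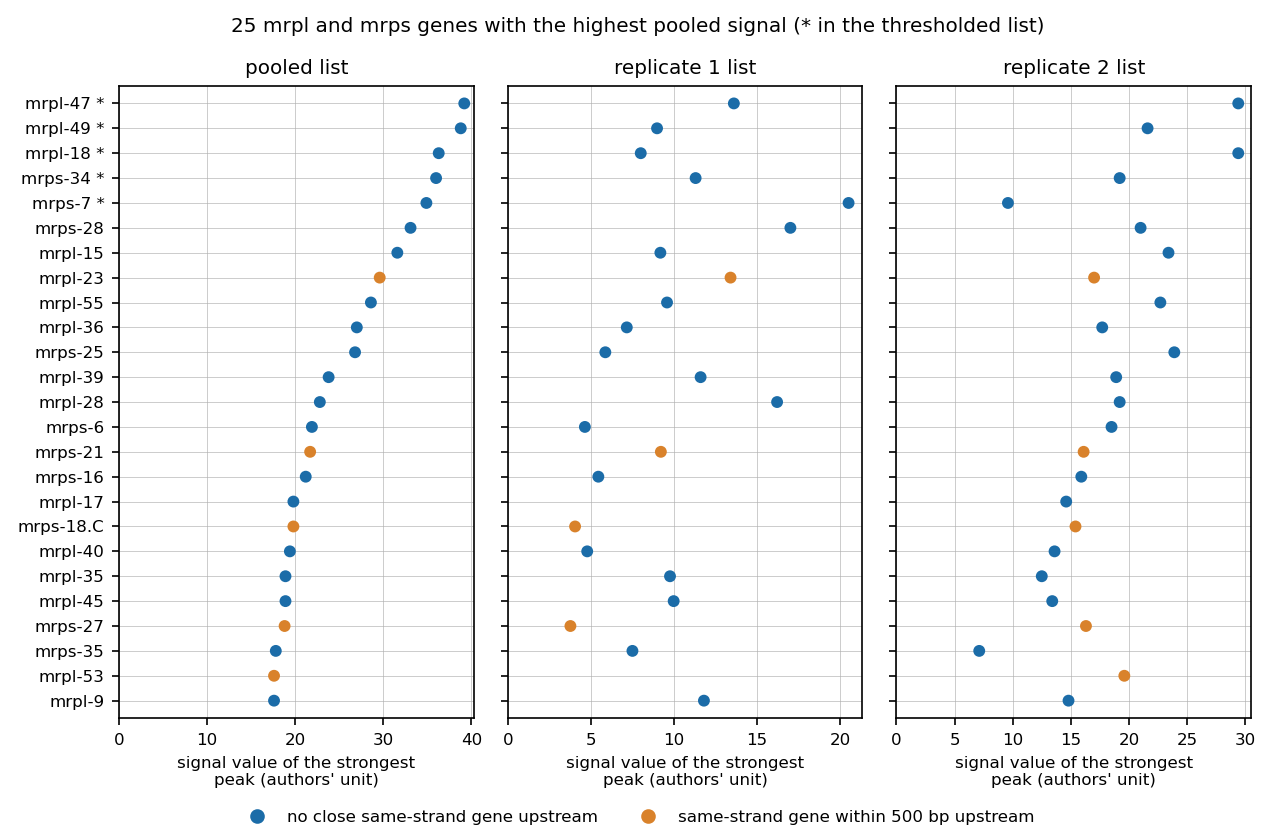
Signal value of the strongest peak in the start window (x axes, the authors' unit, a scale for each list) for the 25 members with the highest pooled value (y axis) in the pooled, replicate 1 and replicate 2 lists. Pooled values fall from 39.2 at mrpl-47; in replicate 1 mrps-7 is highest at 20.5, and in replicate 2 mrpl-18 and mrpl-47 are highest at 29.4.

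The replicates ranked the members alike only in part. Over the 46 members with a summit in both lists, Spearman's rho of the signal values was 0.423 and Pearson's r 0.363. Over the 7569 genes of that kind they were 0.331 and 0.573. These are descriptions over genes that share libraries and neighbouring windows. The strongest summits of the replicates lay within 100 bp of each other at 16 of 46 members (34.8%) and at 24.3% of the 7569 genes.

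**Figure D3:**
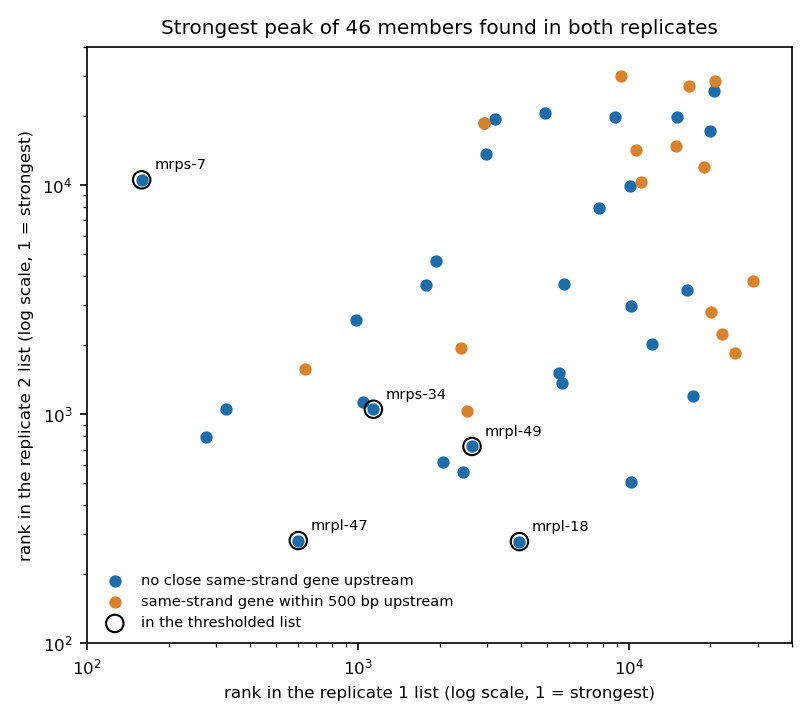
Rank of the strongest peak in the start window in replicate 1 (x axis) and replicate 2 (y axis), both log scales with 1 the strongest, for the 46 members with a summit in both lists; colours give the upstream neighbour and rings the thresholded list. mrps-7 stands apart at ranks 159 and 10531.

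Summits of members lay close upstream of the start. Of the 53 strongest pooled summits, 49 (92.5%) were upstream, against 84.8% for all genes with a summit, in a window that holds more sequence upstream than downstream. In all, 32 (60.4%) were in the last 500 bp before the start, against 32.1% for all genes with a summit. The bin from 250 bp upstream to the start held 23 of them (43.4%), against 18.3% for all genes. The median distance was 244 bp upstream, where all genes had 570.5 bp. The summits of cytosolic ribosomal protein genes had a median of 323 bp. Other mitochondrial lists also lay closer than all genes. With upstream negative, their medians were -232 bp for import, -368 bp for respiratory chain and -377 bp for other mitochondrial translation genes. Chaperone and protease genes had -449.5 bp, and DNA and RNA maintenance genes -456 bp.

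**Figure D4:**
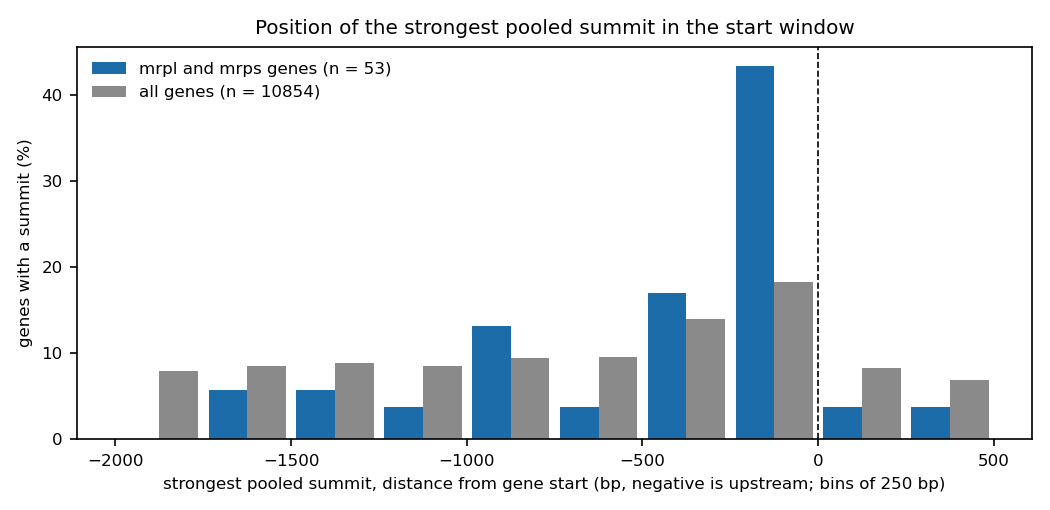
Percentage of genes (y axis) whose strongest pooled summit lies in each bin of 250 bp around the gene start (x axis, bp), for 53 members and 10854 genes in all. The bin just upstream of the start holds 43.4% of members and 18.3% of all genes.

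Summits were less frequent and weaker at members that closely follow another gene, a difference that was not tested. A same-strand gene ended within 500 bp upstream of, or overlapped, the start of 30 of the 71 members (42.3%), against 20.9% of all genes. The median gap was 105 bp, against 140.0 bp in all genes so placed, and 19 of the 30 gaps (63.3%, against 24.8%) measured 80 to 130 bp. Operons themselves are not annotated in the gene models used, so these are runs by position. Of these 30 members, 0 were in the thresholded list (exact 95% interval 0 to 11.6%), against 2.69% of all genes so placed. In the pooled list 17 of the 30 had a summit (56.7%, interval 37.4 to 74.5%), against 53.1% of all genes so placed. Their median signal value was 11.3.

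Of the 41 members without such a neighbour, 36 had a pooled summit (87.8%, interval 73.8 to 95.9%), against 54.7% of all genes without one. Their median signal value was 18.4, and their summits lay at a median of 213 bp upstream, compared with 763 bp for the 17. Over all genes the median signal value was 12.9 both with and without a close upstream gene. The median summit positions of those genes were -649 and -558 bp from the start, with upstream negative. All 5 thresholded members were among these 41 (12.2%, interval 4.08 to 26.2%), against 2.43% of all genes without a close upstream neighbour. In replicate 1, 87.8% of members without a close upstream gene had a summit, against 58% of all genes so placed, and 56.7% of members with one, against 57.8%. In replicate 2 the share was 85.4% without one, against 56%, and 66.7% with one, against 54.5%.

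A divergent gene start within 1000 bp upstream was found at 26 members (36.6%, against 17.7% of all genes), of which 1 also had a close same-strand gene. Among the other 25, 20 had a pooled summit (80%, against 59.3% of all genes with a divergent start) and 4 a thresholded one (16%, interval 4.54 to 36.1%, against 5.58%). The 16 members with neither neighbour all had a pooled summit (16 of 16, interval from 79.4%, against 53.4% of all genes with neither), and 1 of them, mrpl-47, a thresholded one (6.25%, against 1.55%). At the 25 members with a divergent start the median summit position was -213 bp, with upstream negative, and the median signal value 19.2. All genes so placed had -296 bp and 15, nearer to the members than the values over all genes. Members with neither neighbour had -226 bp and 16.5, against -681 bp and 12.5 for all genes with neither. Shared regions also mean shared summits. The strongest pooled summit of 36 of 53 members (67.9%) lay in the window of another protein-coding gene too, as for 40.3% of all genes with a summit, and for 17 members (32.1%) another start was nearer, against 27.5% of all genes with a summit.

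**Figure D5:**
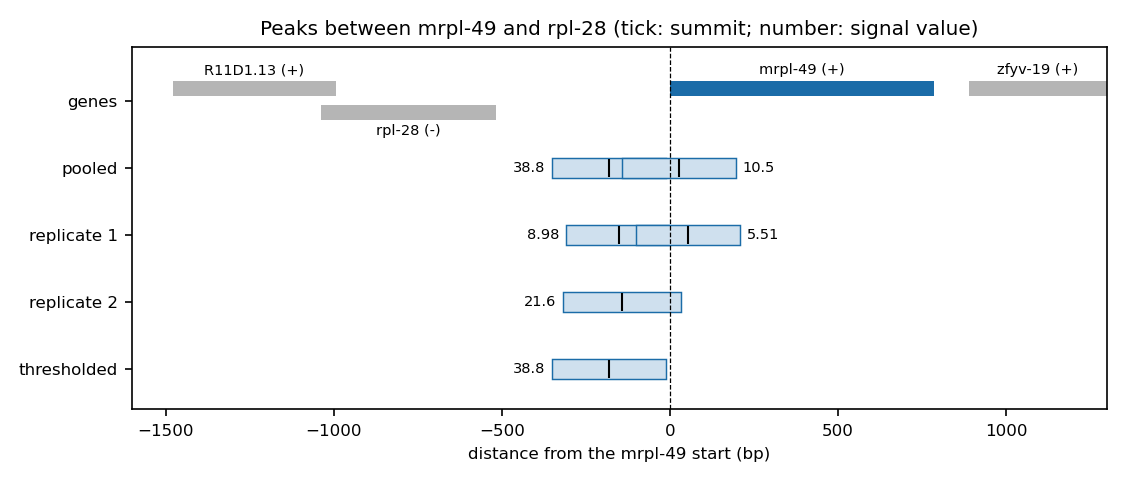
Genes (with strand) and peaks of the 4 lists around mrpl-49 by distance from its start (x axis, bp); boxes are peaks, ticks summits and numbers signal values. The peak between the divergent genes mrpl-49 and rpl-28 has summits 180, 153 and 142 bp upstream of mrpl-49 in the pooled, replicate 1 and replicate 2 lists.

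For the 30 members that follow another gene closely, the start of the first gene of the same-strand run was examined, a comparison added after seeing the data. The first gene had a pooled summit in 21 cases (70%, against 61.2% for all genes so placed) and a thresholded summit in 3 (10%, against 4.3%). Those 3 members, over 2 peaks, were mrpl-32, which follows the proteasome gene rpn-3, and the neighbours mrps-2 and mrpl-4, which follow natc-1. The rpn-3 summit ranked 34 in the pooled list, with a signal value of 94.6, 187 bp upstream, and ranked 120 and 31 in the replicates. The natc-1 summit, 40 bp upstream, had a value of 37 (rank 383) and ranks of 2393 and 191. mrps-26 lies in a run that begins with atp-2, the gene of the ATP synthase beta subunit, whose summit had a value of 30 and lay 268 bp upstream. mrpl-54 follows clsp-1, with a summit value of 32.5 at 233 bp upstream.

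In the pooled list 18 of the 71 members had no summit, as did 9119 of the 19973 genes. Of these 18, 6 had one in each replicate list, a count that was not made over all genes. mrpl-58 was the strongest among the 6 in replicate 2. mrpl-58, the relative of a human factor that frees stalled ribosomes, ranked 2515 in replicate 1 with a summit 76 bp upstream. In replicate 2 it ranked 1030, with a summit 2 bp downstream of the start. The divergent neighbours mrpl-1 and mrps-24 shared 1 peak in each replicate, at signal values of 8.71 and 7.49 (ranks 2920 and 18637), and had none in the pooled list. These were also the peaks of emc-6, a same-strand gene that overlaps the start of mrpl-1. The summits lay 147 and 23 bp upstream of emc-6, nearer to its start than to those of mrpl-1 and mrps-24. No summit in any of the pooled and replicate lists was found at 7 members (9.86%), against 21.9% of all genes. They were mrpl-24, mrpl-50, mrpl-54, mrps-11, mrps-17, mrps-22 and mrps-30, of which mrps-17 alone had no close same-strand gene upstream. mrps-5, whose knockdown lengthens life, had a summit in replicate 2 only, 21 bp downstream of its start, at rank 21203.

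Members lay on all autosomes and not on X. Chromosome III held 23 of the 71, while 13.2% of all genes lie on III, and X held none, while 13.7% of all genes lie there. Pooled summits were found at 19 of 23 members on III (82.6%), where 64.7% of all genes of that chromosome had one. On I the count was 11 of 15 (73.3%, against 61.2%) and on II it was 9 of 12 (75%, against 50.7%). On IV it was 7 of 11 (63.6%, against 54.1%) and on V 7 of 10 (70%, against 46.4%).

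Other lists were set beside the members by count. Cytosolic ribosomal protein genes, 78 by the symbols rpl- and rps-, had a summit in 89.7% of cases in the pooled list and in 66.7% among the 5000 strongest peaks. Their median pooled signal value was 25.5, and 21 (26.9%) were in the thresholded list, led by rps-20 at 106. Only 8 of these 78 genes had a close same-strand gene upstream. Between the 70 without one and the 41 such mitochondrial ribosomal protein genes, the pooled shares were 90% and 87.8% and the median signal values 26.1 and 18.4. In replicate 1 the medians of these groups were 10.6 and 7.36, and in replicate 2 they were 16.3 and 13.6.

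Of 17 other genes of mitochondrial translation, 13 had a pooled summit (76.5%) with a median signal value of 16.4, and 2 were in the thresholded list. ears-2, the mitochondrial glutamyl-tRNA synthetase gene, had a value of 80.3 (rank 44) with a summit 43 bp upstream, and ranks of 27 and 76 in the replicates. This value was above that of every mrpl and mrps gene. iars-2, for isoleucine, had a value of 36.9 with a summit 1825 bp upstream. Below the threshold, sars-2 for serine and the elongation factor gene gfm-1 had values of 23 and 20.5.

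Nuclear genes of the respiratory chain had a pooled summit in 38 of 44 cases (86.4%, median signal value 16.7) and a thresholded one in 5. These were cyc-2.1, a cytochrome c gene (77.2), cox-5A (63.4) and ucr-11 (46.4), of complexes IV and III, atp-3 of the ATP synthase (38.7) and mev-1 of complex II (35.1). The cyc-2.1 summit lay 1056 bp upstream and was also the summit of rpl-18A. The atp-3 peak ranked 285 in replicate 2 and 21119 in replicate 1. The strongest below the threshold were asb-2 (34.3) and cyc-1 (32.4). Import genes had a pooled summit in 16 of 21 cases and thresholded ones at timm-23 (36.7) and ddp-1 (36), both of inner membrane import, followed by mppb-1 (29.3) and tomm-70 (28.3).

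Of 10 mitochondrial chaperone and protease genes all had a pooled summit. hsp-60, the chaperonin gene, was in the thresholded list (76.1), and dnj-10 and clpp-1 came next at 32.9 and 29.4. Of 5 genes that maintain mitochondrial DNA and RNA, 4 had a pooled summit. mtss-1, for the single-stranded DNA-binding protein, was in the thresholded list (35.7, ranks 1948 and 218), while hmg-5 and polg-1 had 11.2 and 9.91. These pathway shares were not tested against each other, and lists that share a peak are not independent.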

How the data were processed

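Peaks of eGFP-tagged MAB-5 from 2 biological replicates in 1 group were taken as deposited. Per the file descriptions, the authors called relaxed peaks with a control alignment on each replicate and on both pooled, and derived the thresholded list from them by the irreproducible discovery rate. The sources used here do not give the caller, the aligner or the depth, and the control is not analysed here. The deposited signal value was used to rank peaks within a list. The −log10 of the q-value deposited with each peak was not used. The ce11 lists were joined to Ensembl release 115 gene models on WBcel235, with symbols from the RefSeq table matched by locus for 19957 of 19973 genes, including 1 member that Ensembl does not name. The ce10 lists were not used. Mitochondrial peaks, 21 to 25 a list, were left out of gene windows.

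A gene had a summit if the deposited summit lay in its window. No tests were run: lists are described by counts and medians beside all genes, across the whole table. Close upstream genes were same-strand genes ending within 500 bp of the start, and divergent starts lay within 1000 bp. Symbols found were 17 of 23 mitochondrial translation, 44 of 46 respiratory chain, 21 of 22 import, 5 of 6 maintenance and 10 of 10 chaperone genes. Named members were those in the thresholded list, the 15 with the highest pooled value and the 5 best ranked in each replicate. Of the pathway lists, those in the thresholded list and up to 2 others were named. Members without a pooled summit, those named with the first gene of a run, mrpl-20 and rps-20 were named after their values were seen, and GCGC was chosen so too. The members, lists and motifs were chosen with earlier results of these data known. Alternatives were other windows, the nearest start, interval overlap of at least 1 bp, stricter lists and single replicates. Window assignment was checked on simulated summits. Python 3.11.15, numpy 2.4.6, scipy 1.17.1, pandas 2.3.3 and matplotlib 3.10.9 were used.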

Additional observations from a re-analysis of the deposited data

How the results depend on the processing

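Of 46 alternative shares, 27 stayed within the exact 95% binomial interval of the reported one and 19 did not. Window size moved the shares with the background. With 500 bp upstream they were 54.9% pooled, 50.7% in each replicate and 38% in both, against 32.3, 33.5, 32.5 and 15.9% of all genes. With 5000 bp they were 91.5% pooled, 93 and 94.4% in replicates 1 and 2, 88.7% in both and 54.9% in the strongest 5000, against 73.3, 79.2, 75.8, 64.3 and 26.7%. With the nearest start alone they were 52.1% pooled, 46.5 and 53.5% in the replicates, 38% in both and 23.9% in the strongest 5000, against 42.8, 45.1, 43.7, 26 and 11.5%. Without members that follow a gene closely they were 87.8% pooled and in replicate 1 and 51.2% in the strongest 5000. All genes without a close upstream gene stood at 54.7, 58 and 16.8%. The 15000 strongest pooled peaks gave 56.3% (35.6% of all genes). The thresholded list restricted to peaks above its median signal reached 0 of 71 members (0%, against 1.1% of all genes). The 502 strongest peaks of a single replicate stood in for the thresholded list when the other was left out. They gave 4.23% in replicate 1 and 2.82% in replicate 2, against 2.25 and 2.27% of all genes. In the strongest 5000, leaving out replicate 2 gave 31% and leaving out replicate 1 gave 42.3%, each against 15.9% of all genes. RefSeq starts, which differed for 5 members, and the first gene of a run, both added after seeing the data, kept the pooled and thresholded shares within the intervals. The median signal value ran from 14.3 to 18.4 over its 6 alternatives, within the 95% order-statistic interval of the reported median, 12.9 to 19.4. No paired analysis was possible because the design has 1 group. Unknown read depth limits what a missing weak peak can show.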
